A study of Sus scrofa with 12 samples.

Results

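Myostatin and the myogenic transcription factors are the growth inhibitor and the DNA-binding regulators that set how skeletal muscle forms and how its fibres are maintained, and they were followed here in pig muscle over the first day after slaughter. The members were all probe sets whose single gene symbol in the array's annotation was MSTN, MYF5, MYF6, MYOD1, MYOG, MEF2A or MEF2C. Of these 7 symbols, 5 were found, on 9 of the 24123 probe sets of the array, which name 6765 genes by 1 symbol; MYOG and MEF2C were not analysed here. The muscle was the semimembranosus of the left hind leg of 3 female commercial hybrid pigs of about 160 kg, all from 1 farm, stunned with CO2 at 87% and slaughtered within minutes of each other. Portions of 3 to 5 g were taken from the same muscle at 20 min, 2 h, 6 h and 24 h after death while the carcass was chilled towards 4 °C, so that the 4 times hold the same 3 pigs and 12 arrays. All 4 groups are therefore post mortem muscle, and no sample was taken before death. No age or genotype of the pigs is given in the sources used here.

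Myostatin, encoded by MSTN, is a secreted ligand of the TGF-β superfamily that restrains muscle growth. It binds the activin type II receptors and signals through SMAD2 and SMAD3 with SMAD4, while follistatin and related proteins hold it inactive. MYF5, MYOD1, MYOG and MYF6 are the 4 basic helix-loop-helix factors that commit cells to the muscle lineage and drive their differentiation. They bind DNA as dimers with E proteins, a pairing that ID proteins block. In adult muscle MYF6 is the one most highly expressed in the fibres, whereas MYF5 marks satellite cells, the resident stem cells. MEF2A and its relatives are MADS-box factors that act with the myogenic factors on muscle promoters.

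Values are log2 intensities as deposited, so that a difference of 1 is 2-fold. The array medians lay between 5.89 and 5.94 and the arrays correlated with r between 0.986 and 0.997. The muscle label was checked on 14 defining fibre markers. Creatine kinase CKM and the troponin TNNC2 were among the 9 that the array held, whose means over the 12 arrays lay between 12.98 and 14.50. Their average was higher at 24 h than at 20 min by 0.033, 0.049 and 0.043 in pigs 1, 2 and 3. Where a transcript is lower in whole muscle, fewer cells of a type and less RNA per cell cannot be told apart.

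All 9 member probe sets had a lower mean at 24 h than at 20 min, and 0 passed the test over the whole array (limma, pig as a block, Benjamini-Hochberg adjusted p under 0.05; smallest adjusted p = 0.193). Over all 23999 probe sets tested, 0.00417% passed in that comparison, which is 1 probe set, and 48% had a lower mean. At an unadjusted p under 0.05, 6 of the 9 were lower and 0 were higher. The array-wide shares by that rule were 6.67% lower and 6.41% higher. The member changes at 24 h ran from -1.03 to -0.19, with a median of -0.34. In 7 of the 9 all 3 pigs were lower at 24 h (array-wide 16.7%), and for 3 of the 9 the 24 h and 20 min values did not overlap (array-wide 4.72%). The 20 min arrays serve every comparison with that time, and the 9 probe sets stand for 5 genes, so these counts are not independent of each other.

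**Figure D1:**
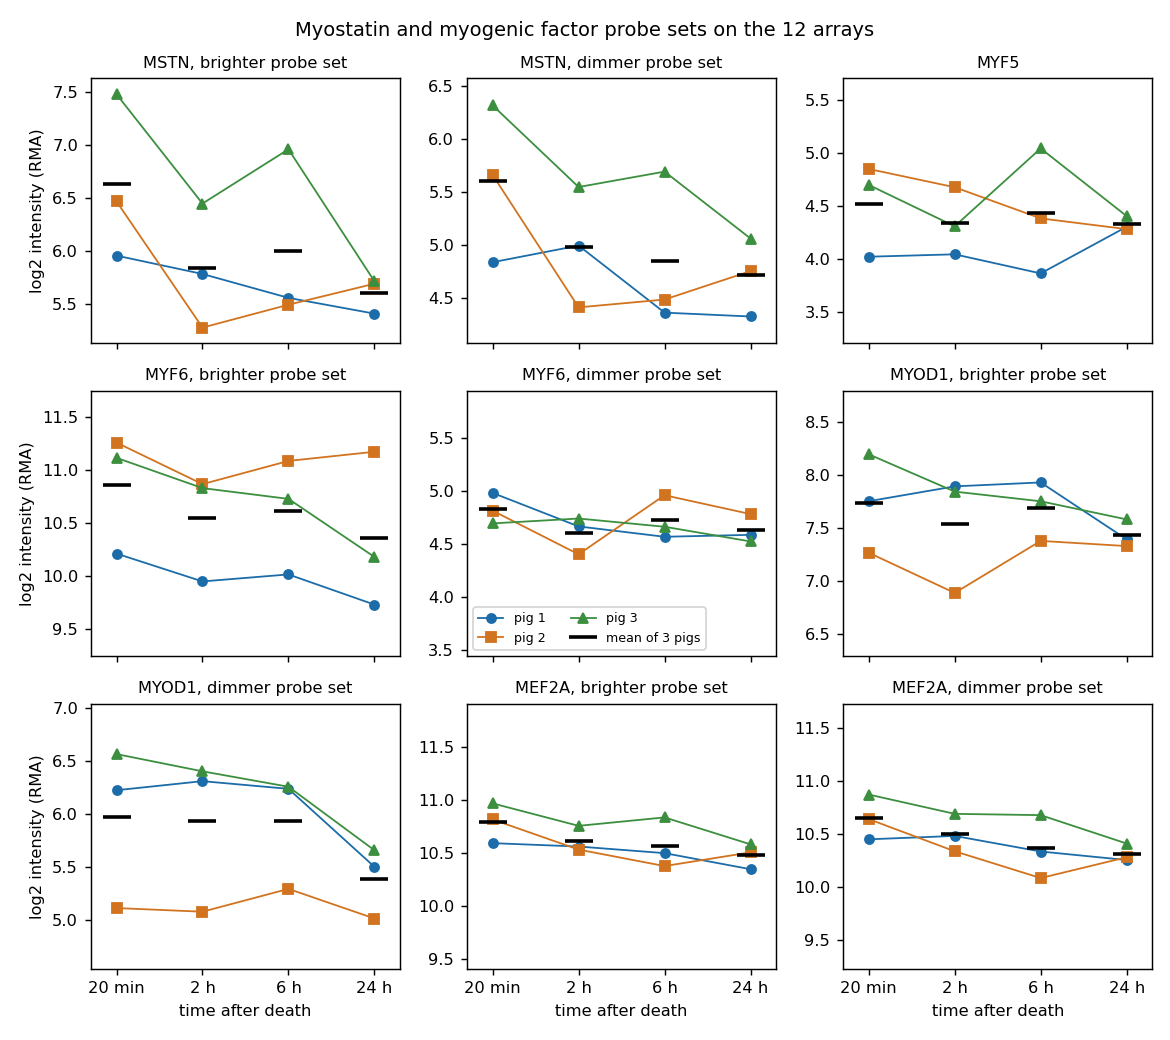
Log2 intensity (vertical axis, each panel spanning 2.5 log2 units) of the 9 member probe sets at 20 min, 2 h, 6 h and 24 h after death (horizontal axis, not to scale); coloured points and lines are the 3 pigs and black bars the mean of 3 pigs. Pig 3 starts highest for MSTN at 7.48, pig 1 lies lowest for the brighter MYF6 probe set, and pig 2 lies below both other pigs at every time for MYOD1.

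MSTN (NCBI gene 399534) had the largest mean difference of the members. It has 2 probe sets, called the brighter and the dimmer here by their mean intensity. The brighter one, whose name marks probes that can match several transcripts, read 5.96, 6.47 and 7.48 in pigs 1, 2 and 3 at 20 min and 5.78, 5.28 and 6.45 at 2 h. At 6 h it read 5.56, 5.49 and 6.96, and at 24 h 5.41, 5.69 and 5.71. Every 24 h value lay below every 20 min value, while the 2 h and 6 h values of pig 3 lay inside the range of the 20 min values. The level was 5.61 ± 0.17 at 24 h and 6.63 ± 0.77 at 20 min (SD, n = 3 each), a log2 change of -1.03 ± 0.65 (SD over 3 pigs; SE 0.241, limma adjusted p = 0.193). This is 2.04-fold lower, with an unadjusted 95% interval of the log2 change from -1.56 to -0.50. By mean change, 0.0792% of all probe sets were lower by more than 2-fold at 24 h. The changes of this probe set were -0.55, -0.78 and -1.76 in pigs 1, 2 and 3, so pig 3 alone was past 2-fold.

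The dimmer MSTN probe set gave the same direction. It read 4.84, 5.67 and 6.32 in pigs 1, 2 and 3 at 20 min and 5.00, 4.42 and 5.55 at 2 h. At 6 h it read 4.37, 4.49 and 5.70, and at 24 h 4.33, 4.76 and 5.07. Here the groups overlapped, since pig 3 at 24 h lay above pig 1 at 20 min. The change at 24 h was -0.89 ± 0.37 (SD over 3 pigs, limma adjusted p = 0.193), lower in 3 of 3 pigs.

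At 2 h both MSTN means also lay below those at 20 min, by an amount that differed between pigs. At that time the brighter probe set stood at -0.80 ± 0.55 and the dimmer one at -0.62 ± 0.72 (SD over 3 pigs; limma adjusted p = 0.579 and 0.592), with pig 1 at -0.17 and 0.16 and pig 2 at -1.19 and -1.25. Without pig 2 the dimmer one was at -0.31. At 6 h the changes from 20 min were -0.63 ± 0.30 and -0.76 ± 0.37 (limma adjusted p = 0.527 and 0.488). The order of the mean levels was 20 min, 6 h, 2 h and 24 h for the brighter probe set and 20 min, 2 h, 6 h and 24 h for the dimmer one. Neighbouring levels after 20 min did not differ beyond their spread. The 24 h level minus the 6 h level was -0.40 ± 0.75 for the brighter probe set and -0.13 ± 0.46 for the dimmer one (SD over 3 pigs, limma adjusted p = 0.712 and 0.925).

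MYF6 (NCBI gene 397005), the myogenic factor of mature fibres, had 2 probe sets that differ widely in brightness. Whether both measure the same strand was not checked, since no probe sequences were used. The brighter one had a mean over the 12 arrays of 10.60. It read 10.21, 11.26 and 11.12 in pigs 1, 2 and 3 at 20 min and 9.95, 10.87 and 10.83 at 2 h. At 6 h it read 10.02, 11.09 and 10.73, and at 24 h 9.73, 11.18 and 10.18. The values of the times overlapped, with pig 1 lowest and pig 2 highest at each time. Within pigs the change at 24 h was -0.48, -0.086 and -0.93 in pigs 1, 2 and 3, with a mean of -0.50 ± 0.42 (SD over 3 pigs; SE 0.144, limma adjusted p = 0.238).

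At 2 h the brighter MYF6 probe set stood at -0.31 ± 0.069 and at 6 h at -0.25 ± 0.12 (SD over 3 pigs, limma adjusted p = 0.628 and 0.627), lower in 3 of 3 pigs both times. The dimmer one averaged 4.70. It read 4.98, 4.82 and 4.70 in pigs 1, 2 and 3 at 20 min, 4.67, 4.41 and 4.74 at 2 h, 4.57, 4.96 and 4.67 at 6 h, and 4.59, 4.78 and 4.53 at 24 h. Its changes from 20 min were -0.23 ± 0.24 at 2 h, -0.10 ± 0.29 at 6 h and -0.20 ± 0.18 at 24 h (SD over 3 pigs; limma adjusted p = 0.668, 0.841 and 0.524). Its 12 values lay within 0.58 of each other, against 1.53 for the brighter one.

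MYOD1 (NCBI gene 407604), the factor that can convert other cells to muscle, had its lowest means at 24 h. The dimmer of its 2 probe sets read 6.22, 5.11 and 6.57 in pigs 1, 2 and 3 at 20 min, 6.31, 5.08 and 6.40 at 2 h, and 6.24, 5.29 and 6.26 at 6 h. At 24 h it read 5.50, 5.01 and 5.66. Pig 2 was lowest at every time, and each pig was lower at 24 h than at any earlier time. The change from 20 min was -0.037 ± 0.12 at 2 h, -0.038 ± 0.25 at 6 h and -0.58 ± 0.42 at 24 h (SD over 3 pigs; limma adjusted p = 0.958, 0.953 and 0.193).

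Between 6 h and 24 h this probe set was lower in 3 of 3 pigs, with a log2 change of -0.54 ± 0.23 (SD over 3 pigs, limma unadjusted p = 0.00251, adjusted p = 0.572). It was the 1 member lower at an unadjusted p under 0.05 in that comparison, as were 3.8% of all probe sets. The brighter MYOD1 probe set read 7.75, 7.27 and 8.20 at 20 min, 7.89, 6.89 and 7.84 at 2 h, 7.93, 7.38 and 7.75 at 6 h, and 7.39, 7.33 and 7.58 at 24 h in pigs 1, 2 and 3. Its change from 20 min was -0.30 ± 0.34 at 24 h (SD over 3 pigs, limma adjusted p = 0.432), with pig 2 at 0.063. The 24 h minus 6 h difference was -0.25 ± 0.25 (limma adjusted p = 0.718). The unadjusted 95% intervals of the 24 h changes overlap, from -0.88 to -0.27 for the dimmer and from -0.65 to 0.045 for the brighter one.

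MEF2A (NCBI gene 100037273) had the smallest spread over pigs of its 24 h change among the members. The brighter of its 2 probe sets read 10.59, 10.82 and 10.97 in pigs 1, 2 and 3 at 20 min and 10.56, 10.53 and 10.76 at 2 h. At 6 h it read 10.50, 10.38 and 10.84, and at 24 h 10.35, 10.51 and 10.58. The 24 h values all lay below the 20 min values, by 0.25, 0.31 and 0.39 in pigs 1, 2 and 3. The log2 change was -0.31 ± 0.070 (SD over 3 pigs; SE 0.0916, limma adjusted p = 0.241), or 1.24-fold lower. The dimmer one read 10.45, 10.64 and 10.87 in pigs 1, 2 and 3 at 20 min, 10.48, 10.33 and 10.69 at 2 h, 10.33, 10.08 and 10.67 at 6 h, and 10.25, 10.28 and 10.41 at 24 h. It stood at -0.34 ± 0.13 at 24 h (SD over 3 pigs, limma adjusted p = 0.246), again without overlap of the 24 h and 20 min values. The mean of each probe set was lower at each later time. From 20 min the mean log2 change at 2 h, 6 h and 24 h was -0.18, -0.22 and -0.31 for the brighter one and -0.15, -0.29 and -0.34 for the dimmer one. Without pig 2 the 6 h changes were -0.11 and -0.15 and the 2 h change of the dimmer one -0.075.

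MYF5 (NCBI gene 100153269), on 1 probe set, differed in course between pigs. It read 4.02, 4.85 and 4.70 in pigs 1, 2 and 3 at 20 min, 4.04, 4.68 and 4.31 at 2 h, 3.86, 4.38 and 5.04 at 6 h, and 4.30, 4.28 and 4.40 at 24 h. The 24 h minus 20 min differences had both signs, at 0.28, -0.57 and -0.29 in pigs 1, 2 and 3. The mean change of -0.19 ± 0.43 (SD over 3 pigs, limma adjusted p = 0.684) had an interval from -0.61 to 0.23. The probe set is dim, with a mean of 4.41, below the array medians. The dimmer probe sets of MSTN, MYF6 and MYOD1 also had means below those medians, at 5.04, 4.70 and 5.80. The brighter MSTN probe set averaged 6.02, and its 24 h values of 5.41, 5.69 and 5.71 lay below the medians. MYF5 and MYF6 are neighbours in the pig genome, with 0 annotated genes between them in the RefSeq table of Sscrofa11.1.

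**Figure D2:**
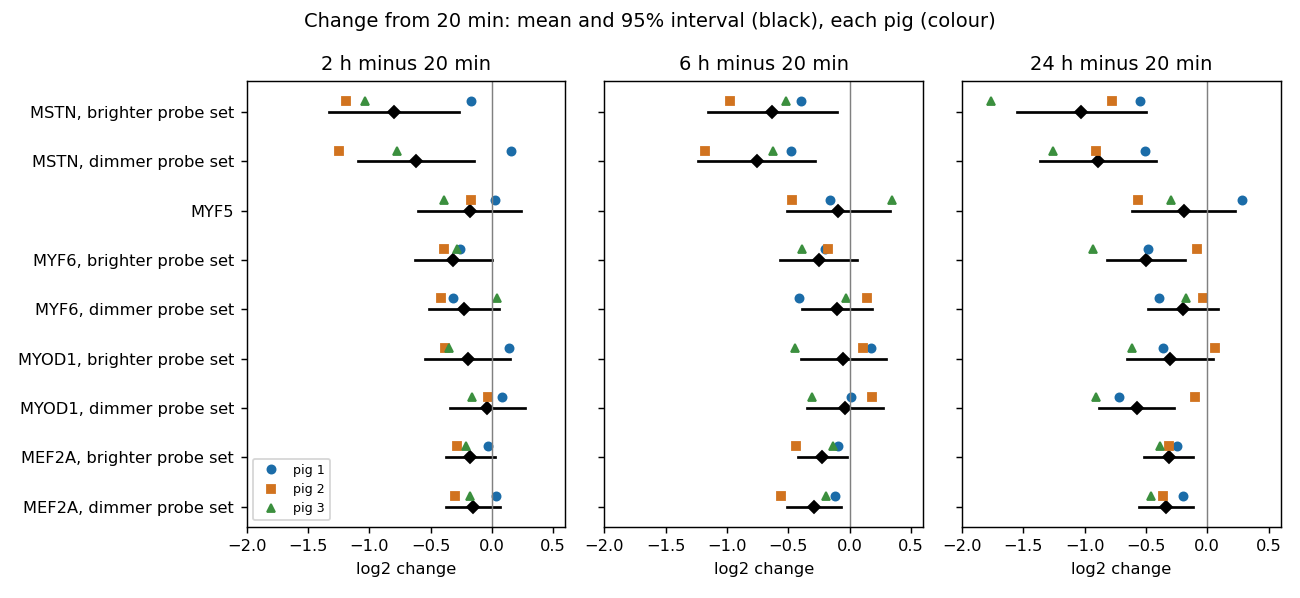
Log2 change from 20 min (horizontal axis) of each member probe set at 2 h, 6 h and 24 h; black diamonds and lines are the limma mean and its unadjusted 95% interval, coloured points the 3 pigs. The MSTN means lie between -1.03 and -0.62 at all 3 times, and the dimmer MYOD1 probe set lies at -0.037 and -0.038 at 2 h and 6 h and at -0.58 at 24 h.

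Fewer members stood out at the earlier times. At 2 h, 9 of 9 member means were below 20 min, where 50% of all probe sets were, and 2 of 9 had an unadjusted p under 0.05 and were lower (array-wide 3.94%). Both were MSTN. At 6 h, 9 of 9 means were lower (array-wide 51.8%) and 4 had an unadjusted p under 0.05 (array-wide 4.54% lower), those of MSTN and MEF2A. In the comparisons of 2 h and of 6 h with 20 min, and of 24 h with 6 h, 0 of all probe sets passed at an adjusted p under 0.05, which is 0%. Across the 4 times together, limma's F test gave 0 members an adjusted p under 0.05 (array-wide 0.00417%), and the smallest was 0.535. From 2 h to 6 h the member changes lay between -0.14 and 0.17, with 4 lower and 5 higher (array-wide 50.2% lower). From 6 h to 24 h 9 of 9 means were lower (array-wide 46.5%), and from 2 h to 24 h 8 of 9 were (array-wide 47.4%). The comparisons share arrays, so these counts are given side by side only.

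By share of the sum of squares over the 12 arrays, pig exceeded time for every member probe set except the dimmer one of MYF6. For that probe set the share of pig was 4.46% and that of time 30.0%. The remaining 65.6% went with neither, and limma's F test over the 4 times gave it an adjusted p = 0.766. Pig accounted for 79.6% of the sum of squares of the brighter MYF6 probe set over the 12 arrays and time for 11.8%. The MYF6 pig means were 9.98, 11.10 and 10.72 in pigs 1, 2 and 3. For the dimmer MYOD1 probe set pig accounted for 74.9% and time for 18.2%, with pig means of 6.07, 5.12 and 6.22. In both MYOD1 probe sets the 4 arrays of pig 2 lay below all 8 arrays of pigs 1 and 3 (array-wide 3.44%), so that the pig with the highest MYF6 mean had the lowest MYOD1 mean. For MSTN the shares were 47.1% for pig and 34.5% for time in the brighter probe set. For the brighter MEF2A probe set they were 45.6% and 39.2%. Over all probe sets tested the median share was also larger for pig, at 31.8%, than for time, at 21.0%. How many of all probe sets had pig above time was not counted, so that order is not shown to be particular to the members. The 4 arrays of a pig come from 1 animal, so no test of a difference between pigs is given.

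The 24 h change differed between pigs, and so did signs of RNA quality and markers of other cells, not all in the same order of pigs. In pigs 1, 2 and 3 the brighter MSTN probe set changed by -0.55, -0.78 and -1.76. The 3′ minus 5′ signal of the EF1A control, used to judge RNA quality, differed by 0.38, -0.010 and 0.47. Pig 2, where EF1A was at -0.010, also had the smallest changes of the brighter MYF6 (-0.086) and the dimmer MYOD1 probe set (-0.099), while its change of the brighter MEF2A probe set was -0.31. The 3′ minus 5′ signal of the actin control differed by 0.094, -0.23 and -0.044. The mean of 12 macrophage and leukocyte markers changed by -0.30, -0.14 and -1.18, and 8 of the 12 had a lower mean. Their mean level ran over the 3 pigs from 5.61 to 6.10 at 24 h and from 6.15 to 6.79 at 20 min. The mean of 13 fibroblast and matrix markers changed by 0.13, 0.020 and -0.47, and that of 14 immediate early genes by -0.60, -0.15 and -0.77. For 7 adipocyte markers it changed by -0.042, -0.20 and -0.31, and for 10 endothelial markers by 0.012, 0.31 and -0.13. For 7 smooth muscle and pericyte markers it changed by -0.018, 0.32 and -0.28. The part of any of these in the member changes was not tested. Without pig 3 the 24 h change was -0.66 for the brighter MSTN and -0.28 for the brighter MYF6 probe set, and without its 20 min array these were -0.89 and -0.41.

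**Figure D3:**
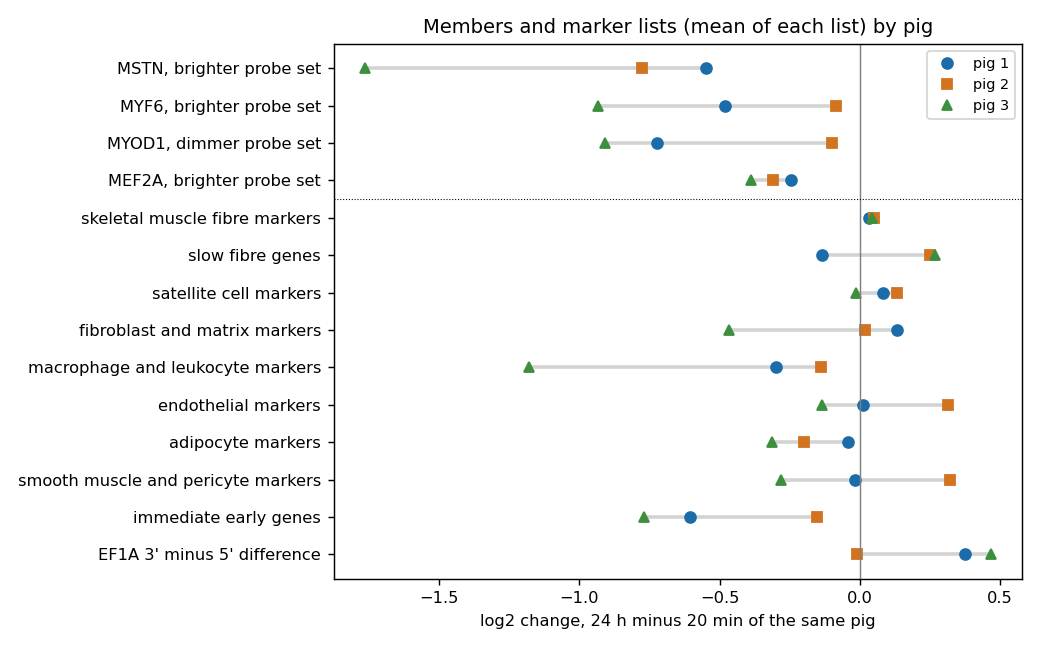
Log2 change from 20 min to 24 h of the same pig (horizontal axis) for 4 member probe sets (above the dotted line) and for the mean of marker lists and the EF1A 3′ minus 5′ difference (below it); coloured points are the 3 pigs and grey lines their range. Skeletal muscle fibre markers lie at 0.033 to 0.049 in all pigs, whereas MSTN and the macrophage markers reach their lowest values, -1.76 and -1.18, in pig 3. Pig 3 is also the lowest for the other member probe sets and for every other list plotted except the slow fibre genes.

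Markers of satellite cells lay on both sides of 0 at 24 h, with none past the test. Of 15 satellite cell markers 7 were on the array, PAX7 not among them. At 24 h 5 of the 7 had a higher mean and 2 a lower one, with a median of 0.16 and 0 past the adjusted threshold in either direction. Of all 6765 genes 52.8% had a lower mean, and the median was -0.011. VCAM1, an adhesion molecule of satellite cells and of vessels, was at -0.40 ± 0.37, and CD34, shared with endothelium, at 0.21 ± 0.15 (SD over 3 pigs). The average of the 7 differed by 0.084, 0.13 and -0.014 in pigs 1, 2 and 3. The 9 slow fibre genes had a median of 0.15 and the 8 fast fibre genes one of -0.039, again with 0 past the threshold. In pigs 1, 2 and 3 the average of the slow fibre genes differed by -0.13, 0.25 and 0.27. That of the fast fibre genes differed by 0.028, -0.022 and -0.083.

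Of the ligands related to myostatin, 8 of 9 were on the array and 0 passed at 24 h. The changes lay between -0.16 and 0.19 with a median of 0.019, with GDF11, the closest relative of myostatin, at 0.19 ± 0.31 and the activin subunit INHBA at 0.11 ± 0.042 (SD over 3 pigs). With all 15 probe sets of these ligands the lowest change was -0.64, on a dim probe set of TGFB2 picked out after its value was seen, while the brightest TGFB2 probe set was at -0.11. Among 7 of 9 receptors 0 passed, 5 had a lower mean and the median was -0.091. Over all 11 probe sets of these receptors the median was -0.020, with changes from -0.30 to 0.30. The type II receptor ACVR2B, which binds myostatin, was at 0.045 ± 0.30, its relative ACVR2A at -0.30 ± 0.32 and the type I receptor ACVR1B at -0.20 ± 0.097.

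Of 12 SMADs and regulators the array held 4, each with a mean at 24 h below that at 20 min, and 0 passed. The median was -0.38 over the brightest probe set of each gene and -0.23 over all 5 probe sets, and the lowest values were those of SMAD1 and TGIF1. SMAD1, which carries BMP rather than myostatin signals, was at -0.58 ± 0.26 (SD over 3 pigs, limma adjusted p = 0.193). TGIF1, a corepressor of SMAD targets, was at -0.59 ± 0.23 (limma adjusted p = 0.193), and both were lower in 3 of 3 pigs. SMAD3, which transmits the myostatin signal, was at -0.042 ± 0.15, and the shared partner SMAD4 at -0.19 ± 0.10. Of 14 binding proteins and proteases 5 were on the array, 2 with a lower mean and 0 past the threshold, with a median of 0.038. Follistatin, FST, which binds myostatin and blocks it, was at -0.39 ± 0.52, and FSTL3 at -0.040 ± 0.23. BMP1, a protease that frees myostatin from its propeptide, was at 0.11 ± 0.15.

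Partners and inhibitors of the myogenic factors lay on both sides of 0. The array held 8 of 12 E proteins, ID proteins and other helix-loop-helix factors. Of the 8, 5 had a lower mean at 24 h, 0 passed and the median was -0.091, or -0.019 over all 9 probe sets. ID1, ID2 and ID3, which block the dimers of myogenic factors and E proteins, were at -0.16 ± 0.48, 0.11 ± 0.12 and -0.27 ± 0.42 (SD over 3 pigs). Of 16 MEF2 relatives and cofactors 7 were on the array, 5 with a higher mean and 0 past the threshold, with a median of 0.12. MEF2D was at 0.12 ± 0.26, and MEF2A at -0.31 ± 0.070, a difference that was not tested. HDAC5, a repressor that binds MEF2 factors and the 1 of 7 such genes on the array, was at -0.096 ± 0.14.

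Genes known as targets of the myogenic and MEF2 factors were balanced. Of 29 listed, 17 were on the array, and 8 had a higher and 9 a lower mean at 24 h, with 0 past the threshold and a median of -0.0060. The 4 brightest, TNNC2, CKM, MYL1 and MYLPF, were at -0.036, -0.0060, 0.0099 and -0.043. The acetylcholine receptor subunit CHRNA1 was at 0.22 ± 0.27 and the cell cycle inhibitor CDKN1A at 0.16 ± 0.17 (SD over 3 pigs). The lowest of the 17, picked out after its value was seen, was the cardiac actin gene ACTC1 at -0.51 ± 0.27 (limma adjusted p = 0.223). Of 14 growth and atrophy genes 9 were on the array, 7 with a higher mean and 0 past the threshold, with a median of 0.12. The atrophy ubiquitin ligase gene FBXO32 was at 0.22 ± 0.068 and the growth factor gene IGF2 at 0.058 ± 0.24.

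**Figure D4:**
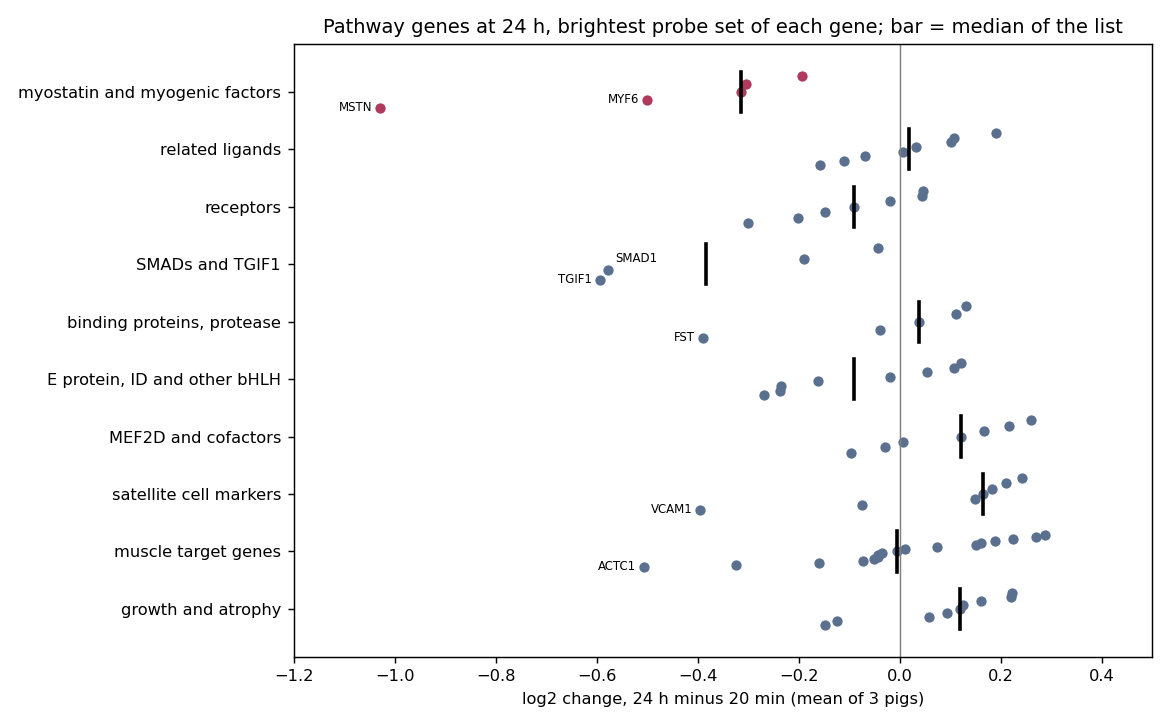
Log2 change from 20 min to 24 h (horizontal axis, mean of 3 pigs) of the members and of the 9 lists named on the vertical axis, each point the brightest probe set of 1 gene and each black bar the median of the list; genes lower by more than 0.35 are named. MSTN, at -1.03, is the lowest gene plotted, and the median is -0.31 for the 5 member genes, -0.38 for the 4 genes of the SMAD list (-0.23 over their 5 probe sets) and between -0.091 and 0.16 for the other lists plotted.

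The genes whose course was most like that of a member were ranked by Pearson's r over the 12 arrays after each pig's mean was taken off. These values are descriptions, since the highest of 6764 genes are picked and the arrays come from 3 pigs. For MSTN they were RPL7L1, a ribosomal protein-like gene (r = 0.99), the integrin subunit ITGB3 (0.97), the COP9 signalosome subunit COPS4, the histone methyltransferase KMT5B and the endoplasmic reticulum GTPase ATL2 (0.96 each). The dimmer MSTN probe set itself had r = 0.93. RPL7L1, COPS4, KMT5B and ATL2 changed by -0.16, -0.18, -0.22 and -0.23 at 24 h, so a like course was found at a much smaller size of change, and ITGB3 changed by -0.42.

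For the brighter MYF6 probe set the 5 most alike were the Arp2/3 complex gene ACTR3 (r = 0.96), CTSV, YIPF1, ACTR3B and the LIM-domain gene FHL2 (0.93), above the r = 0.61 of its own dimmer probe set. For MEF2A they were the fucosyltransferase gene FUT8 (r = 0.96), the transcription factor subunit GTF2H1, PRKAA2, which encodes a catalytic subunit of AMP-activated kinase, the chaperonin subunit CCT2 and PDZRN3 (0.94), below the r = 0.97 of the second MEF2A probe set. The brighter MYOD1 probe set was most like the collagen gene COL1A2 (r = 0.95), ENTPD1, NAXE, SEPT4 and ZFAND2B (0.91), and its dimmer probe set had r = 0.79. MYF5 was most like ESCO1 (r = 0.92), ZADH2, PERP, TMEM70 and DLGAP5 (0.87). Among the members themselves MSTN and MEF2A had r = 0.90 for their brighter probe sets, MSTN and MYF6 0.87, and MYF5 and MYF6 0.06.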

How the data were processed

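Biotin-labelled RNA of 12 muscle portions was hybridised to 1-colour Affymetrix pig arrays, 1 array for each portion. The authors deposited log2 intensities, which the submitters' processing notes credit to RMA and affy, with versions not given in the sources used here. RMA equalises the distribution of each array, so a change common to all transcripts would not show. Precision is limited by the 12 arrays, and no detection call was used.

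Groups and pig numbers came from the sample titles. Of 24123 probe sets 124 controls were left out and 23999 tested, with no filter. The platform annotation, of unknown currency, named genes and gave 10099 probe sets 1 symbol, 198 several and 13826 none. One limma 3.58.1 model (R 4.3.3, statmod 1.5.0) held 12 arrays, the 4 times and pig as a block, with two-sided p-values adjusted over all probe sets within each comparison. The same animals pair the arrays, and 18 pairs of arrays from 1 pig had deviations from the group means that correlated at 0.409 to 0.656. The model was tested on simulated data.

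Members and gene lists were chosen with earlier results of these data known. Named were all members, any gene of the myostatin pathway lists, up to 4 brightest genes of other lists, genes chosen for their role and the 5 genes most like each member, with the brightest probe set for each gene. Alternatives changed the pig block, scaling, prior, weights and filter, or left out arrays and pigs.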

Additional observations from a re-analysis of the deposited data

How the results depend on the processing

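The 36 member changes from 20 min and from 6 h to 24 h were refitted under 23 alternatives. The dimmer MSTN, MYF5 and dimmer MYF6 probe sets had 22, since leaving out the dimmest 40% removed them. None of the 36 changes passed the threshold in any alternative. The smallest limma adjusted p was 0.0699, for the dimmer MSTN probe set at 24 h without the 20 min array of pig 1. Without the replicate block the changes at 24 h were the same, the smallest member adjusted p was 0.805 instead of 0.193, and 2 instead of 6 members had an unadjusted p under 0.05. That count was 0 instead of 4 for 6 h and 0 instead of 2 for 2 h against 20 min, and 0 instead of 1 for 24 h against both 6 h and 2 h. With or without the block 0 members had an adjusted p under 0.05, so there was no adjusted member call that could depend on the pairing by pig. With pig as a random block the count at 24 h was 4, without the dimmest 40% of probe sets 5 of the 6 members left, and 6 under the 5 other alternatives that keep all pigs. With single arrays or pigs left out it ran from 4 (without pig 3) to 8 (without pig 2). The 24 h changes kept their direction in all alternatives. With arrays or pigs left out, their ranges were -1.28 to -0.66 and -1.13 to -0.71 for the brighter and dimmer MSTN, -0.71 to -0.28 and -0.28 to -0.099 for MYF6, -0.49 to -0.15 and -0.81 to -0.41 for MYOD1, -0.37 to -0.26 and -0.42 to -0.27 for MEF2A and -0.43 to -0.0060 for MYF5. At 2 h and 6 h the ranges were -1.11 to -0.60 and -0.85 to -0.46 for the brighter MSTN, -1.01 to -0.31 and -0.999 to -0.55 for the dimmer MSTN, -0.25 to -0.12 and -0.29 to -0.11 for the brighter MEF2A and -0.24 to -0.075 and -0.38 to -0.15 for the dimmer MEF2A probe set. Of the 36 changes 10 turned sign in some alternative, the largest being the brighter MSTN probe set from 6 h to 24 h (-0.40, and 0.025 without pig 3). For the dimmer MYOD1 probe set array weights gave 0.068 at 2 h and 0.028 at 6 h, and left-out arrays or pigs gave -0.15 to 0.084 at 2 h and -0.15 to 0.10 at 6 h. At 6 h the left-out ranges were -0.17 to 0.14 for the brighter MYOD1, -0.36 to 0.093 for MYF5 and -0.23 to 0.057 for the dimmer MYF6 probe set. For 24 h minus 6 h they were -0.70 to 0.025 and -0.33 to 0.12 for the brighter and dimmer MSTN, -0.37 to 0.17 for MYF5, -0.21 to 0.026 for the dimmer MYF6 and -0.17 to 0.058 for the dimmer MEF2A probe set. The cause was not tested. With all probe sets of the listed genes, the SMAD list had a median of -0.23 at 24 h over 5 probe sets. The growth and atrophy list had 25 of 28 probe sets with a higher mean, where 48% of all probe sets had a lower one. By an unadjusted limma p under 0.05, 3 of the 28 were higher (array-wide 6.41%). The 28 stand for 9 genes, so they are not independent of each other. At an adjusted p under 0.10, 0 members passed at 24 h with all arrays, 2 when pig 1 had no 20 min array, and 1, the dimmer MYOD1 probe set at 0.0792, when pig 2 had no 24 h array. Over the whole array 1 probe set passed 0.05 at 24 h, 0 without the block, 40 when pig 1 lacked its 20 min array and 5 when pig 2 lacked its 24 h array. The 3 pigs limit what these data can show.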
